A study of Mus musculus with 6 samples.

Results

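The genes described here are 10 genes known from the endothelial lineage, Pecam1, Esam, Kdr, Tek, Tie1, Flt1, Emcn, Eng, Cldn5 and Erg, taken by symbol from the 46983 genes that were counted. They were read in GFP+ neural crest cells (NCCs) sorted from mouse embryos at E11.25, in 3 control and 3 BAF155/170-deficient libraries. Control embryos were Wnt1Cre/+;BAF155flox/+;BAF170flox/+;Rosa26mTmG/+ and deficient embryos were Wnt1Cre/+;BAF155flox/flox;BAF170flox/flox;Rosa26mTmG/+. Both groups thus carried the Cre, the reporter and at least 1 floxed copy of each gene, and the controls were not wild type. The Wnt1Cre driver is also active in the dorsal neural tube. The comparison asked whether these genes differed in level when BAF155 and BAF170, core subunits of the BAF chromatin remodeling complex, were deleted in NCCs.

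Endothelial cells line blood vessels. They sense VEGF and angiopoietin ligands through receptor tyrosine kinases, seal their contacts with junction proteins, and keep their identity through ETS family transcription factors. NCCs are known to contribute pericytes and smooth muscle to vessel walls, whereas the endothelium itself comes mostly from mesoderm, and macrophages lie close to vessels in the embryo.

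Library depth, as counts assigned to genes, was 9662823, 8191219 and 11661941 for the 3 control libraries and 12633319, 16557026 and 19808620 for the 3 deficient libraries, each in replicate order. All deficient libraries were deeper than the controls, so a gene near the detection limit was read with more precision in the deficient group. Levels are given as CPM, which are counts scaled to a library size normalized by the TMM method. A count of 0 allows up to 3 counts, which was 0.401 CPM in the shallowest library and 0.142 CPM in the deepest. These limits cover counting error only.

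The sorted cells were checked against their label. Sox10, a defining factor of migratory crest, was low at 4.36, 7.76 and 2.22 CPM in control and 1.49, 0.855 and 1.19 CPM in deficient NCCs, and Foxd3, another, did not pass the filter on low counts, with at most 20 counts in a library (both named after their values were seen). A list of 12 macrophage markers summed to between 11270 and 14400 CPM in a library, where a list of mesenchymal crest markers summed to between 121 and 305 CPM. These levels go against a label of NCCs alone. NCCs is used below as the name of the sorted libraries, and how much of their RNA came from NCCs was not tested.

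Smarcc1, which encodes BAF155, had 42.1, 55.0 and 35.1 CPM in control and 29.4, 26.4 and 24.5 CPM in deficient NCCs. Smarcc2, which encodes BAF170, had 91.8, 89.9 and 92.9 CPM in control and 85.9, 82.3 and 86.8 CPM in deficient NCCs. For both genes the deficient libraries were the 3 lowest, as in 16.4% of all tested genes, and counts over a whole gene do not show whether the floxed exons were lost. Smarcc1 was called lower (log2 fold change −0.71, edgeR adjusted p = 0.0676) and Smarcc2 was not (−0.11, edgeR adjusted p = 0.251), and both turned, to 0.26 and 0.81, with the scaling to embryonic markers described further on. The edgeR call of Smarcc1 was lost when any of several libraries was left out. Its adjusted p was 0.222 without control replicate 1, 0.132 without deficient replicate 2 and 0.225 without deficient replicate 3, at log2 fold changes of −0.74, −0.70 and −0.65 that kept most of their size. The log2 fold change was −0.53, under the threshold, without control replicate 2 (edgeR adjusted p = 0.0938, within 2.91e-08 to 0.533 over 15 alternatives).

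Of the 10 genes, 6 passed the filter on low counts (Kdr, Eng, Flt1, Pecam1, Tie1 and Esam) and 4 did not (Tek, Emcn, Cldn5 and Erg). A call needed an edgeR adjusted p of at most 0.1 (Benjamini-Hochberg, over all 13961 genes tested), a log2 fold change of 0.58 or more in either direction, and 2 CPM or more on average. By edgeR 0 of the 6 were called lower, where 4.88% of all tested genes were, and 0 were called higher, where 0.0573% were. An edgeR adjusted p of at most 0.1, whatever the fold change, was reached by 0 of the 6, against 4.18% of all tested genes with a higher and 7.75% with a lower level. At an unadjusted p under 0.05 edgeR counted 2 of the 6, Kdr and Eng, and 3813 of all 13961. DESeq2 and limma-voom also called 0 of the 6 and put 0 at an adjusted p of at most 0.1, and limma-voom with quality weights called 0 but put 3 there. The background itself changed with each library left out. The genes called lower and higher by edgeR numbered 681 and 8, but 0 and 0 without control replicate 1 (2547 at an unadjusted p under 0.05), 61 and 0 without control replicate 2 and 1219 and 26 without control replicate 3. They numbered 1030 and 7 without deficient replicate 1, 219 and 45 without deficient replicate 2, and 17 and 0 without deficient replicate 3. In each of these fits 0 of the 6 genes were called.

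The receptors for VEGF come first. Kdr encodes VEGFR2, the main signaling receptor for VEGF-A in endothelium (ENSMUSG00000062960.10, minus strand of chromosome 5 of GRCm38, 75932827 to 75978458). Kdr had 168, 165 and 186 CPM in control and 191, 190.3 and 203 CPM in deficient NCCs. The deficient libraries were the 3 highest, by a margin smaller than the spread among the controls, and Kdr was the only one of the 6 tested genes whose groups did not overlap, as 15% of all tested genes did in that direction. The means were 173 ± 11.4 CPM (SD, n = 3) in control and 195 ± 6.99 CPM (SD, n = 3) in deficient NCCs. The log2 fold change was 0.17 with a standard error of 0.064, and it did not pass (edgeR adjusted p = 0.124, within 0.0234 to 0.970 over 15 alternatives). Without control replicate 3 the edgeR adjusted p was 0.0234 at a log2 fold change of 0.22, and with scaling to macrophage markers the direction turned, at −0.003. With library totals in place of TMM the groups overlapped for Kdr (log2 fold change 0.227, edgeR adjusted p = 0.27).

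Flt1 encodes VEGFR1, which binds VEGF-A tightly and signals weakly (ENSMUSG00000029648.13, minus strand of chromosome 5, 147561604 to 147726011). Its level was 5.42, 7.36 and 8.12 CPM in control and 8.69, 8.07 and 9.92 CPM in deficient NCCs. Control replicate 1 was the lowest and deficient replicate 3 the highest, and control replicate 3 lay within the deficient range. The log2 fold change of 0.35 had a standard error of 0.19 and did not pass (edgeR adjusted p = 0.253, within 0.0282 to 0.602 over 15 alternatives). Its 95% interval, from −0.06 to 0.76, reached past the 0.58 that a call needs. Without control replicate 1 the log2 fold change was 0.20.

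Tie1 and Tek encode the receptors of the angiopoietin pathway, Tek being the receptor that angiopoietins bind and Tie1 its partner. Tie1 (ENSMUSG00000033191.14, minus strand of chromosome 4, 118471191 to 118490061) had 13, 5 and 13 counts in control and 13, 15 and 20 counts in deficient NCCs. These were 1.38, 0.669 and 1.07 CPM and 1.02, 0.917 and 0.950 CPM. The deficient values lay inside the control range. The log2 fold change of −0.14 had a standard error of 0.42 and a 95% interval from −1.05 to 0.78 (edgeR adjusted p = 0.864), and its direction turned without control replicate 1 (0.11) and with scaling to embryonic markers (0.77). Tek (ENSMUSG00000006386.15, plus strand of chromosome 4, 94739289 to 94874976) had 0, 5 and 4 counts in control and 7, 6 and 8 counts in deficient NCCs. It was too low to be tested, and its sums of 9 and 21 counts came from groups of unequal depth.

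Eng encodes endoglin, a co-receptor for BMP9 and BMP10 that works with the ALK1 receptor in vessels (ENSMUSG00000026814.16, plus strand of chromosome 2, 32646595 to 32682669). It had 107, 101 and 115 CPM in control and 114, 122 and 127 CPM in deficient NCCs. Deficient replicate 1 lay just under control replicate 3, and the other values were ordered by group. The means were 108 ± 6.97 CPM (SD, n = 3) and 121 ± 6.67 CPM (SD, n = 3), and the log2 fold change of 0.17 with a standard error of 0.068 did not pass (edgeR adjusted p = 0.132, within 0.0282 to 0.978 over 15 alternatives). Without control replicate 3 the edgeR adjusted p was 0.0430 at a log2 fold change of 0.23. The exons of Eng overlap those of Fpgs on the other strand. Fpgs held 23 to 44 counts in a library, and whether the counting used the strand is not given in the sources used here.

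Pecam1 encodes CD31, an adhesion protein of endothelial cells, platelets and leukocytes (ENSMUSG00000020717.19, minus strand of chromosome 11, 106654217 to 106750628). It had 5.21, 5.35 and 5.91 CPM in control and 5.17, 5.93 and 5.98 CPM in deficient NCCs. The groups overlapped, with the lowest and the highest value both in the deficient group. The log2 fold change of 0.05 had a standard error of 0.19 (edgeR adjusted p = 0.889) and turned to −0.12 with scaling to macrophage markers. Its 95% interval, from −0.36 to 0.47, leaves out a change of the size a call needs in either direction, but holds for TMM normalization alone. With the embryonic scaling the log2 fold change was 0.97 (edgeR adjusted p = 0.0282).

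Esam, an adhesion molecule of endothelial tight junctions (ENSMUSG00000001946.13, plus strand of chromosome 9, 37528078 to 37538319), had 3, 10 and 11 counts in control and 17, 14 and 17 counts in deficient NCCs. Its control values of 0.319, 1.34 and 0.903 CPM enclosed the deficient values of 1.33, 0.855 and 0.807 CPM. The log2 fold change of 0.23 had a standard error of 0.52 (edgeR adjusted p = 0.814), and its sign turned without control replicate 1 (−0.16), the library with 3 counts, and without deficient replicate 1 (−0.00999). Cldn5, the tight junction claudin of the blood-brain barrier (ENSMUSG00000041378.1, plus strand of chromosome 16, 18776847 to 18778262), had 6, 0 and 5 counts in control and 5, 5 and 4 counts in deficient NCCs. Emcn, a sialomucin of venous and capillary endothelium (ENSMUSG00000054690.17, plus strand of chromosome 3, 137341067 to 137432185), had 8, 5 and 3 counts in control and 2, 5 and 12 counts in deficient NCCs. Cldn5 and Emcn were too low to be tested, and their groups overlapped.

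Erg is an ETS transcription factor that holds endothelial identity (ENSMUSG00000040732.18, minus strand of chromosome 16, 95359169 to 95586593). It had 7, 3 and 2 counts in control and 5, 5 and 3 counts in deficient NCCs, too low to be tested. The 4 untested genes together held 21, 13 and 14 counts in control and 19, 21 and 27 counts in deficient NCCs. With no filter, where all 10 genes were fitted, the edgeR adjusted p of these 4 lay between 0.679 for Emcn and 0.875 for Cldn5. The standard errors of that fit were 0.73 to 0.85 on the log2 scale, so whether Tek, Cldn5, Emcn or Erg differed is not resolved.

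**Figure D1:**
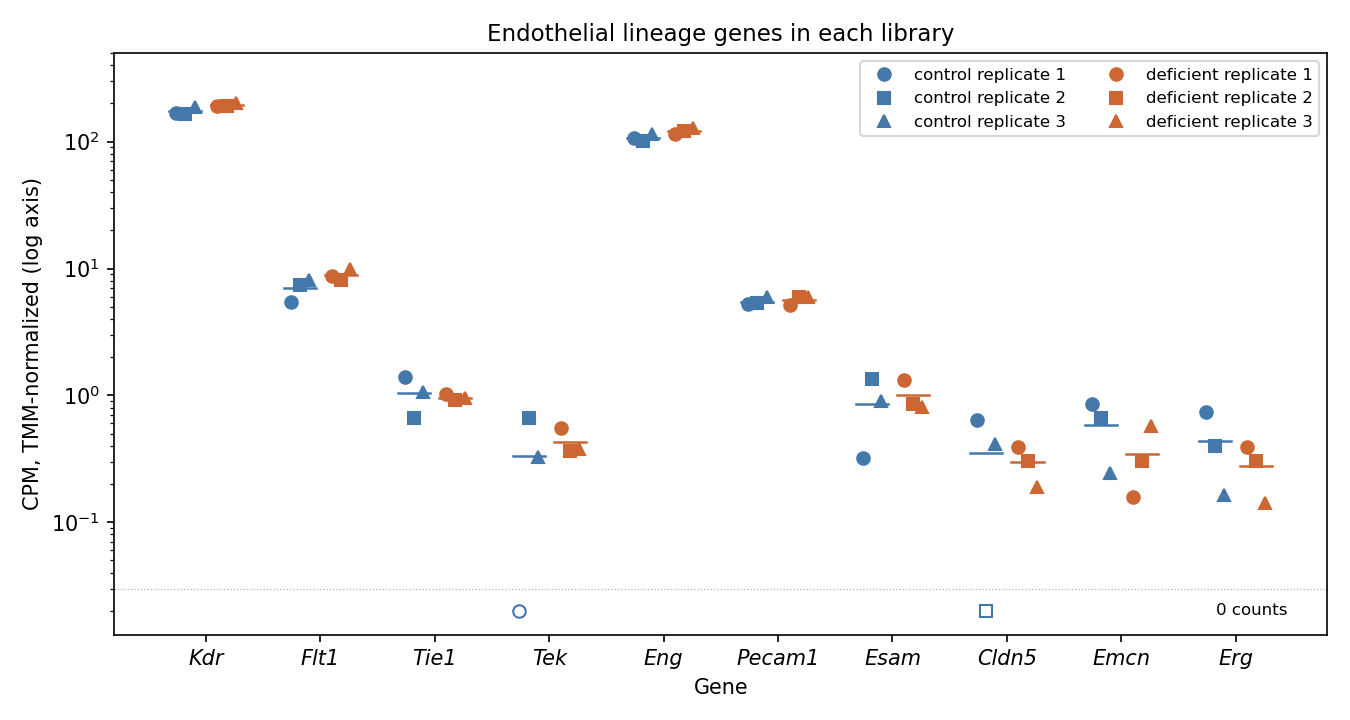
TMM-normalized CPM (log axis) of the 10 genes in each of the 3 control and 3 deficient libraries, with a bar at each group's mean and open symbols for libraries with 0 counts. Kdr and Eng lie at 101 CPM or above in every library, Flt1 and Pecam1 between 5.17 and 9.92 CPM, and the other 6 genes at or below 1.38 CPM.

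Compared per kilobase of exon, the 10 genes were far from equal in level. The mean over the 6 libraries was 28.3 CPM per kilobase for Eng, 20.4 for Kdr, 0.898 for Pecam1 and 0.587 for Flt1. Each of Eng, Kdr and Pecam1 lay above the next gene in that order without overlap of their values. From Flt1 on, through Esam (0.323 CPM per kilobase), Cldn5 (0.228), Tie1 (0.204), Erg (0.103), Emcn (0.0862) and Tek (0.0811), the values of each pair of neighbours overlapped, so the order of neighbours is not resolved. Flt1 lay above Tie1, Erg, Emcn and Tek throughout, and above Esam within each library. Kdr and Eng together held between 94.2% and 95% of the summed CPM of the 10 genes in each library. That sum was 290, 282 and 318 CPM in control and 323, 330 and 349 CPM in deficient NCCs, with the deficient libraries the 3 highest, though the groups overlapped with library totals. Without Kdr and Eng it was 14.6, 16.5 and 17.2 CPM in control and 17.7, 17.05 and 18.9 CPM in deficient NCCs, and the groups overlapped.

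These levels go against the label of an endothelial lineage set in part, since Tie1, Esam, Tek, Emcn, Cldn5 and Erg were near 0 beside Kdr and Eng. Some other genes known from endothelium, given below, were higher. Cdh5, which encodes VE-cadherin, the adherens junction protein of endothelium, had 1.70, 1.61 and 1.56 CPM in control and 1.72, 1.65 and 1.71 CPM in deficient NCCs, a mean of 0.395 CPM per kilobase (named after its values were seen). It is in a list of 24 other endothelial-enriched genes, of which 16 did not pass the filter, with at most 16 counts in any library. The list summed to 120, 113 and 135 CPM in control and 127, 136 and 133 CPM in deficient NCCs, and the groups overlapped. Of its 8 tested genes edgeR called 0 and counted 0 at an unadjusted p under 0.05, DESeq2 and limma-voom called 0, and the median log2 fold change was 0.13. The highest mean CPM was that of Cd93, a C-type lectin-like receptor that myeloid cells also carry, with 59.6, 59.7 and 71.2 CPM in control and 64.2, 72.0 and 70.0 CPM in deficient NCCs. Next was Calcrl, a receptor for adrenomedullin, with 23.7, 21.5 and 25.4 CPM in control and 26.1, 28.4 and 26.4 CPM in deficient NCCs. Vwf and S1pr1 followed, at means of 12.06 and 9.64 CPM over the libraries (named after their values were seen). The groups overlapped for Cd93 but not for Calcrl, whose log2 fold change of 0.19 did not pass (edgeR adjusted p = 0.210). In bulk libraries such as these, fewer cells of a type and less RNA per cell cannot be told apart.

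Macrophage markers had small differences like those of Kdr and Eng. The list of 12, all of them tested and none at 0, summed to 11970, 11270 and 13060 CPM in control and 13160, 13760 and 14400 CPM in deficient NCCs, with Ctss the highest at a mean of 3833 CPM. All 12 had a higher mean in deficient NCCs, with log2 fold changes from 0.15 to 0.25, and the groups did not overlap in 6, where 15% of all tested genes did so in that direction. By edgeR 0 of the 12 were called. An unadjusted p under 0.05 was reached in edgeR by 9 of them and by 3813 of all 13961 genes. An edgeR adjusted p of at most 0.1 was reached by 1, against 4.18% of all tested genes with a higher level (Adgre1, adjusted p = 0.0924, but 0.195 to 0.319 without any 1 of 4 libraries, named after its values were seen). DESeq2, limma-voom and limma-voom with quality weights called 0, and put 8, 3 and 11 at an adjusted p of at most 0.1, as edgeR did 11 without control replicate 3, so whether these markers passed that limit depended on the tool and the library. The shares of all tested genes at that limit in these other fits are not given here, so these counts have no background beside them. Within a library Kdr stood at 14.1, 14.6 and 14.3 CPM per 1000 CPM of macrophage markers in control and 14.5, 13.8 and 14.1 in deficient NCCs. Eng stood at 8.93, 8.96 and 8.80 in control and 8.68, 8.90 and 8.85 in deficient NCCs. Neither ratio separated the groups, nor did Kdr over Eng, at 1.57, 1.63 and 1.62 in control and 1.67, 1.55 and 1.59 in deficient NCCs. Flt1, at 0.453, 0.653 and 0.622 in control and 0.660, 0.586 and 0.689 in deficient NCCs, overlapped as well. Pecam1 stood at 0.435, 0.475 and 0.453 in control and 0.393, 0.431 and 0.415 in deficient NCCs, with the deficient libraries the 3 lowest by a small margin, and its level did not pass with the macrophage scaling (edgeR adjusted p = 0.728).

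With libraries scaled to the macrophage markers, which was added once values had been seen, the log2 fold changes of Kdr and Eng were −0.003 and 0.002 (edgeR adjusted p = 0.970 and 0.978). That scaling took the median over all 13961 genes from −0.02 to −0.19 on the log2 scale, and relative to it the median of the 6 tested genes was 0.19 both before and after. The part of macrophages in the levels of Kdr and Eng was not tested.

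**Figure D2:**
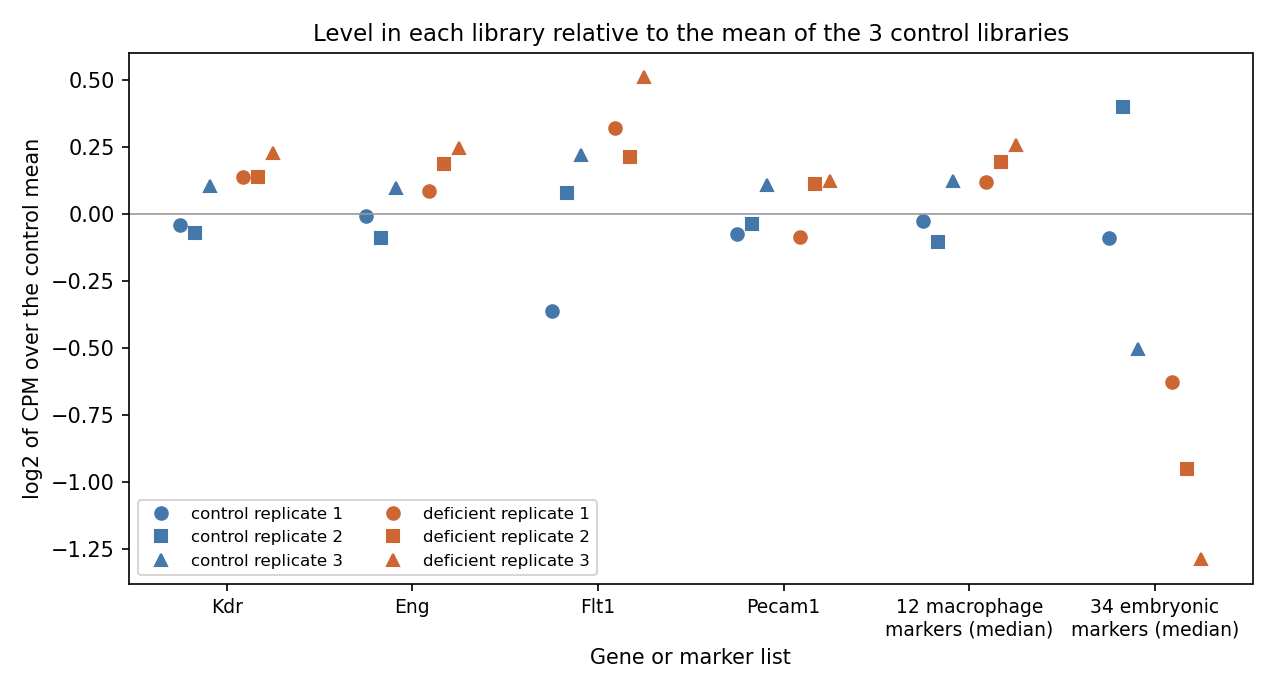
Level in each library as log2 of its CPM over the mean of the 3 control libraries, for Kdr, Eng, Flt1 and Pecam1 and for the median of 12 macrophage markers and of 34 embryonic markers. Kdr (−0.07 to 0.23), Eng (−0.09 to 0.24) and the macrophage median (−0.11 to 0.26) spread over like ranges with TMM normalization, under which the embryonic median lay between 0.40 in control replicate 2 and −1.29 in deficient replicate 3.

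Markers of crest, sensory, autonomic and neural tube cells, together called embryonic markers here, were lower in part. The calls below are those of edgeR where no other tool is named. Mesenchymal crest markers summed to 229, 305 and 193 CPM in control and 152, 125 and 121 CPM in deficient NCCs, with Col1a2 the highest, and 8 of 15 tested were called lower (8 by DESeq2 and limma-voom). Migratory and glial crest markers summed to 85.2, 113 and 64.9 CPM in control and 61.8, 48.6 and 51.9 CPM in deficient NCCs, with Ednrb the highest and 4 of 8 tested called lower (Sox10, Tfap2a, Tfap2b and Sox9), against 5 by DESeq2 and 4 by limma-voom. Ednrb itself had a log2 fold change of −0.01. In both sums the deficient libraries were the 3 lowest and control replicate 2 the highest. Sensory markers summed to 48.5, 76.4 and 31.8 CPM in control and 29.7, 26.6 and 20.8 CPM in deficient NCCs, with Pou4f1 the highest and 2 of 9 called lower, Isl1 among them, against 5 by DESeq2 and 1 by limma-voom. Neural tube markers summed to 97.6, 113 and 68.7 CPM in control and 78.5, 64.4 and 45.2 CPM in deficient NCCs, with Nes the highest and the 1 of 12 called lower, against 2 by DESeq2 and 0 by limma-voom, and the groups overlapped. Autonomic markers summed to 11.8, 18.5 and 7.06 CPM in control and 6.42, 5.32 and 5.03 CPM in deficient NCCs. Of these, edgeR called 0 of 4 (2 at an unadjusted p under 0.05), although these 2 were lower at an adjusted p of at most 0.1, with a mean under the 2 CPM that a call needs, DESeq2 and limma-voom 0 and limma-voom with quality weights 1. Of the 48 genes tested in these 5 lists edgeR called 15 lower, where 4.88% of all tested genes were. DESeq2 called 20 of the 48 lower, where it called 869 of all 13961 genes lower. Limma-voom called 13, against 829, and limma-voom with quality weights 23, against 1251. In edgeR 3813 of all genes had an unadjusted p under 0.05. Of the 48, edgeR called 0 without control replicate 1 or deficient replicate 3, 1 without control replicate 2 and 4 without deficient replicate 2. It called 23 without control replicate 3 and 18 without deficient replicate 1. The number of all genes called lower, given above, fell and rose with the same libraries left out. The genes named from these 5 lists were named after their values were seen.

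With libraries scaled to the median of the 34 embryonic markers of at least 2 CPM, the median over all 13961 genes moved from −0.02 to 0.90 on the log2 scale. That of the 6 tested genes moved from 0.17 to 1.07, so relative to all genes it was 0.19 before and 0.17 after. Under that scaling 4 of the 6 were called higher, as were 8958 of the 13961 genes. The part of cell composition in these values was not tested.

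Other blood lists held few of the counts, and their calls compare with those over all genes given above. Megakaryocyte markers summed to 55.1, 51.1 and 62.0 CPM in control and 59.8, 66.8 and 61.4 CPM in deficient NCCs, with Pf4 the highest at a mean of 48.5 CPM and 6 of 10 under the filter. Of the 4 tested, edgeR called 0 with 0 at an unadjusted p under 0.05, and DESeq2 and limma-voom called 0. Erythroid markers summed to 28.9, 67.4 and 22.2 CPM in control and 22.9, 17.05 and 21.2 CPM in deficient NCCs, control replicate 2 standing highest. Of 8 tested, edgeR called 0 with 3 at an unadjusted p under 0.05, while DESeq2 called 2 lower, limma-voom 1 and limma-voom with quality weights 3. Neutrophil markers summed to 19.8, 17.5 and 22.7 CPM in control and 27.5, 23.9 and 26.3 CPM in deficient NCCs, with S100a8 the highest and the deficient libraries above the controls. Of the 3 tested, edgeR called 0 with 2 at an unadjusted p under 0.05, DESeq2 and limma-voom called 0, and limma-voom with quality weights called 1 higher. Progenitor markers summed to 10.3, 10.2 and 7.63 CPM in control and 7.75, 7.33 and 7.26 CPM in deficient NCCs, and 1 of 3 tested was called lower, Kit (log2 fold change −0.98, edgeR adjusted p = 0.0777, but 0.132 to 0.248 without any 1 of 4 libraries, at log2 fold changes from −0.86 to −1.01). With the embryonic scaling Kit turned to 0.004 (edgeR adjusted p = 0.994). Genes of these lists were named after their values were seen, and their part in the levels of Kdr and Eng was not tested.

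The genes around the receptors were described by lists. For comparison with their counts, edgeR called 4.88% of all tested genes lower and 0.0573% higher. Of the same 13961 genes DESeq2 called 869 lower and 15 higher. Limma-voom called 829 lower and 7 higher, and limma-voom with quality weights 1251 and 27. In edgeR 3813 of them had an unadjusted p under 0.05. Of 12 ligands, co-receptors and partners of VEGF and angiopoietin signaling, 10 were tested. By edgeR 0 were called and 1 had an unadjusted p under 0.05, and DESeq2 and limma-voom called 0. Nrp2, a co-receptor for VEGF and semaphorins, had 479.6, 477 and 521 CPM in control and 522, 535 and 550.4 CPM in deficient NCCs. Nrp1, its paralog, had 40.3, 39.2 and 36.9 CPM in control and 39.5, 41.3 and 41.4 CPM in deficient NCCs. The groups overlapped for Nrp1 but not for Nrp2, whose log2 fold change of 0.12 did not pass (edgeR adjusted p = 0.218) and turned to −0.05 with the macrophage scaling.

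Of 13 receptors, ligands and Smads around endoglin, 11 were tested, with a median log2 fold change of −0.19. By edgeR 1 was called lower and 7 had an unadjusted p under 0.05, as did 3813 of all 13961 genes. DESeq2 called 2 lower, limma-voom 1 and limma-voom with quality weights 2. The edgeR call was Smad5, and that of limma-voom was Tgfbr3, a co-receptor for TGF-beta, at an adjusted p of 0.098 (edgeR adjusted p = 0.114, named after its values were seen). Smad5, a signal transducer of BMP receptors, had 19.9, 31.2 and 21.4 CPM in control and 17.5, 14.5 and 15 CPM in deficient NCCs. The deficient libraries were the 3 lowest, and the log2 fold change of −0.61 had a standard error of 0.16 (edgeR adjusted p = 0.0781). It turned to 0.35 with the embryonic scaling. It fell short of the threshold with limma-voom (−0.576), limma-voom with quality weights (−0.494), library totals (−0.545) and no filter (−0.565). The edgeR adjusted p was 0.214 without control replicate 1, 0.211 without control replicate 2, 0.159 without deficient replicate 2 and 0.252 without deficient replicate 3 (log2 fold changes of −0.733, −0.401, −0.561 and −0.584), within 0.000561 to 0.381 over 15 alternatives. Acvrl1, which encodes ALK1, had 58.7, 58.2 and 62.0 CPM in control and 67.7, 71.5 and 69.4 CPM in deficient NCCs. The groups did not overlap, and its log2 fold change of 0.22 passed the adjusted p alone (edgeR adjusted p = 0.0812), not the fold change needed for a call. Bmpr2, a type II receptor for BMPs, had a log2 fold change of −0.39 (edgeR adjusted p = 0.0771, named after its values were seen), which turned to 0.58 with the embryonic scaling. Neither Acvrl1 nor Bmpr2 passed by edgeR with control replicate 1 left out (adjusted p = 0.248 and 0.245), nor with control replicate 2 (0.236 and 0.230), deficient replicate 2 (0.175 and 0.156) or deficient replicate 3 (0.259 and 0.198) left out. The same held by edgeR with library totals (adjusted p = 0.166 and 0.122) and with the macrophage scaling (0.658 and 0.111). Tgfbr1, a type I receptor for TGF-beta, had 55.1, 57.8 and 51.5 CPM in control and 48.5, 44.5 and 50.7 CPM in deficient NCCs. Its groups did not overlap, and its log2 fold change of −0.19 did not pass (edgeR adjusted p = 0.138) and turned to 0.75 with the embryonic scaling.

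Of 18 transcription factors of endothelial and blood specification, 13 were tested, with a median log2 fold change of 0.03. By edgeR 0 were called and 2 had an unadjusted p under 0.05, DESeq2 and limma-voom called 0, and limma-voom with quality weights called 1 lower. The adjusted p alone was passed by Gata2, at a mean of 1.83 CPM (log2 fold change −1.08, edgeR adjusted p = 0.0952, but 0.113 to 0.305 without any 1 of 5 libraries, at log2 fold changes from −0.83 to −1.20, named after its values were seen). Ets2, an ETS factor, had 62.8, 64.2 and 70.3 CPM in control and 68.0, 71.4 and 74.9 CPM in deficient NCCs. Tal1, a factor of blood and endothelial progenitors, had 32.8, 32.1 and 31.4 CPM in control and 32.5, 34.2 and 38.8 CPM in deficient NCCs. The groups overlapped for both, and neither passed by edgeR (adjusted p = 0.292 and 0.327). The factors Etv2, Sox7, Sox17, Sox18 and Meox2 did not pass the filter, with at most 12 counts in a library (named after their values were seen).

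Of 9 junction genes 8 were tested, and edgeR, DESeq2 and limma-voom called 1 lower. Jam3, an adhesion molecule of tight junctions, had 6.06, 6.96 and 5.09 CPM in control and 3.13, 2.87 and 2.56 CPM in deficient NCCs (log2 fold change −1.07, standard error 0.23, edgeR adjusted p = 0.0534). Tjp1, a scaffold of tight junctions, had 19.9, 16.9 and 11.3 CPM in control and 15.04, 12.5 and 6.27 CPM in deficient NCCs. Its groups overlapped and it did not pass (edgeR adjusted p = 0.415). Of 13 genes of arterial, venous and lymphatic identity 9 were tested. By edgeR 1 was called lower and 3 had an unadjusted p under 0.05, DESeq2 called 4 lower, limma-voom 2 and limma-voom with quality weights 4. Prox1, a transcription factor of lymphatic endothelium and of neural cells, had 4.36, 7.63 and 3.12 CPM in control and 1.72, 2.02 and 1.85 CPM in deficient NCCs (log2 fold change −1.40, standard error 0.34, edgeR adjusted p = 0.0660). For Jam3 and Prox1 the deficient libraries were the 3 lowest. The lymphatic gene Lyve1 had at most 2 counts in a library (named after its values were seen). Nr2f2, a venous factor, and Efnb2, an arterial ligand, had log2 fold changes of −0.98 and −0.91 that did not pass (edgeR adjusted p = 0.173 and 0.198) and turned to 0.02 and 0.08 with the embryonic scaling. DESeq2 (adjusted p = 0.0176 and 0.0349) and limma-voom with quality weights (0.0277 and 0.0391) called both lower, as did edgeR with no filter, without control replicate 3 and without deficient replicate 1, and limma-voom called Nr2f2 alone (0.0957).

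Of 9 mural genes 8 were tested, and edgeR, DESeq2 and limma-voom called 1 lower. Pdgfrb, the PDGF receptor of pericytes, had 9.25, 13.5 and 6.81 CPM in control and 3.99, 5.74 and 4.84 CPM in deficient NCCs. The deficient libraries were the 3 lowest (log2 fold change −0.99, standard error 0.25, edgeR adjusted p = 0.0728). Anpep, an aminopeptidase of pericytes and myeloid cells, had 926, 898 and 1011 CPM in control and 1046, 1066 and 1139 CPM in deficient NCCs. Its groups did not overlap, and its log2 fold change of 0.20 did not pass by edgeR (adjusted p = 0.103). Anpep passed the adjusted p of DESeq2 (0.0247) and limma-voom (0.0892), but not the fold change for a call. The same held by edgeR with no filter (adjusted p = 0.0496), the replicate block (0.0103) and without control replicate 3 (0.018). With the embryonic scaling edgeR called it higher (log2 fold change 1.1, adjusted p = 0.0287). Des, which encodes desmin, had a mean of 20.3 CPM and a log2 fold change of −0.12 (edgeR adjusted p = 0.489), which turned to 0.81 with the embryonic scaling. The calls of Jam3, Prox1 and Pdgfrb were lost by edgeR without control replicate 1 (adjusted p = 0.215, 0.215 and 0.229), control replicate 2 (0.166, 0.211 and 0.228) or deficient replicate 3 (0.176, 0.190 and 0.219). The call of Prox1 was also lost without deficient replicate 2, where the edgeR adjusted p rounded to 0.1 from above. In these fits the log2 fold changes stayed past the threshold, from −0.71 for Pdgfrb without control replicate 2 to −1.48 for Prox1 without control replicate 1. With the embryonic scaling their log2 fold changes were −0.12, −0.36 and 0.02.

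Sequence before a RefSeq start (GRCm38.p6), 250 bases long, was read for 8 of the 10 genes, with 3 starts for Erg. These starts are not always the gene ends given above. The windows of Emcn and Kdr reach a few bases into the gene as given above, and that of Tie1 lies mostly inside it. The windows at the later starts of Erg lie inside the gene as well. It is shown for Kdr and Eng, the pair with the highest levels and like differences, and for Cldn5, which had few counts. The letters searched on both strands were GGAA, the core that ETS factors bind, GAGGAAGT, a longer form known from the myeloid ETS factor PU.1, and CCGGAA, a longer form known from other ETS factors. Both longer forms hold the core. Of all 32851 windows of that length 93.4% hold GGAA, 2.44% hold GAGGAAGT and 12% hold CCGGAA. Capitals mark the core on either strand. Eng (chr2:32646345-32646594, plus strand) holds 3 cores, 1 of them within GAGGAAGT, Kdr (chr5:75978456-75978705, minus strand) holds 4, 1 of them within CCGGAA, and Cldn5 (chr16:18776597-18776846, plus strand) holds 0.
Eng: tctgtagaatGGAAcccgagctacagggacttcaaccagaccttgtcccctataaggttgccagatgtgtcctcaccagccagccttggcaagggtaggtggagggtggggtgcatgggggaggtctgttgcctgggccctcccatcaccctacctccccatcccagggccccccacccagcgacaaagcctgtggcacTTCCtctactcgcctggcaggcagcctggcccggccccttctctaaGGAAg
Kdr: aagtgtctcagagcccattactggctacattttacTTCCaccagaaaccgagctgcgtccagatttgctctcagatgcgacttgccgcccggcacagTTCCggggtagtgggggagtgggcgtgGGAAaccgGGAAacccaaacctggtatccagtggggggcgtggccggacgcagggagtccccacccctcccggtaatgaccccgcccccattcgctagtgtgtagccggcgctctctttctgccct
Cldn5: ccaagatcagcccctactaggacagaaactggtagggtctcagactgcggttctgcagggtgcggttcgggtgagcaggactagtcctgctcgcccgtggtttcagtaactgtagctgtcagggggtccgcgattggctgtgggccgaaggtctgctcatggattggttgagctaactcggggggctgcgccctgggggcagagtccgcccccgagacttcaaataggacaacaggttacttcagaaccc
The windows of the other genes held neither longer form. They held 7 cores at Tie1, 4 at Emcn, 4 at Flt1, 2 at Tek and 0, 4 and 2 at the 3 starts of Erg. Tie1 and Emcn, with few counts, thus held at least as many cores as Kdr and Eng. Cldn5 was the only gene read that had no core in any window, so it does not stand for the genes with few counts. A match is a run of letters and was not tested as a binding site.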

How the data were processed

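The authors deposited 1 whole-number count of reads per gene and library, without normalization. Per the methods and the submitters' processing notes they trimmed strand-specific poly(A) libraries with cutadapt 1.18, aligned them to GRCm38 with STAR and counted with featureCounts. The annotation release, the strand setting and the treatment of reads with several matches are not given in the sources used here. Identifiers were matched without their version to GENCODE M21, which named 46488 of 46983.

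The analysis used edgeR 4.0.16 in R 4.3.3: filterByExpr (minimum count 10, minimum total 15), TMM and a robust quasi-likelihood fit with condition alone, with Benjamini-Hochberg adjustment over 13961 genes. The fits were also run on simulated data, as a test whose outcome is not given here. A first form of that test stopped on its own limit, which also counted genes that the rule for a call cannot call, and the limit was then rewritten. Alternatives were DESeq2 1.42.0, limma 3.58.1 (voom, with and without quality weights), library totals, no filter, at least 2 CPM in 3 libraries, an adjusted p of 0.05, a replicate block, each library left out, and scaling to embryonic markers. Scaling to macrophage markers was added after seeing the data. Libraries of a group differed beyond counting noise (chi-square per degree of freedom of at least 9.03). The members and lists were chosen with earlier results of these data known. From each pathway list the text names the called genes, up to 4, and the 2 with the highest mean CPM. Where other genes are named, it says so. The text leaves out 1 further gene that the rule also names.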

Additional observations from a re-analysis of the deposited data

How the results depend on the processing

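No alternative called any of the tested genes lower. With scaling to embryonic markers 4 were called higher and 5 had an adjusted p of at most 0.1, while limma-voom with quality weights gave 3, no filter 2, the replicate block 2 and leaving out a library 0 to 2. The median log2 fold change of the tested genes was 1.07 with the embryonic scaling and −0.000274 with the macrophage scaling, where the summed CPM of the 10 genes gave −0.00194. Of all genes, 1251 were called lower and 27 higher by limma-voom with quality weights, 1143 and 21 by edgeR with the replicate block, 55 and 8958 with the embryonic scaling, 0 and 0 with the macrophage scaling (3256 at an unadjusted p under 0.05 by edgeR), and 94 and 0 at an adjusted p of 0.05. DESeq2 called 15 higher, no filter 33, the stricter filter 3. Leaving out a library gave 0 to 1219 lower and 0 to 45 higher.

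Kdr and Eng had an adjusted p of at most 0.1 in 5 of 15 alternatives each. These were limma-voom with quality weights (0.0425 and 0.0643), and by edgeR no filter (0.0841 and 0.0810), the replicate block (0.0260 and 0.0430), the embryonic scaling (0.0284 and 0.0282) and without control replicate 3 (0.0234 and 0.0430). The replicate block called Nr2f2 and Efnb2 lower by edgeR (adjusted p = 0.0163 and 0.0147). With that block Tjp1 passed the edgeR adjusted p (0.0156), but not the fold change for a call (−0.554). Nrp2 and Tgfbr1 passed the adjusted p of limma-voom with quality weights (0.0591 and 0.0586) and of edgeR without control replicate 3 (0.0506 and 0.0679). By edgeR Nrp2 also passed it with the replicate block (0.072). With the embryonic scaling edgeR called both genes higher (adjusted p = 0.0323 and 0.076).

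The sign turned with the macrophage scaling for Pecam1 (−0.118), Kdr (−0.003), Nrp2 (−0.0501), Nrp1 (−0.103), Cd93 (−0.0552), S1pr1 (−0.0477), Vwf (−0.0083), Ets2 (−0.0527), Tal1 (−0.0407) and Cdh5 (−0.105), and with the embryonic scaling for Tie1 (0.770), Smarcc1 (0.262), Smarcc2 (0.808), Smad5 (0.353), Bmpr2 (0.577), Tgfbr1 (0.750), Tjp1 (0.417), Nr2f2 (0.0172), Efnb2 (0.0802), Pdgfrb (0.021), Des (0.811), Kit (0.00352), Nes (0.373), Col1a2 (0.22) and Pou4f1 (0.16). Ednrb, near 0, turned with several settings, to at most 0.916 with the embryonic scaling. Both scalings shift every gene by construction. With a library left out Esam ran from −0.155 to 0.624 and Tie1 from −0.337 to 0.105, and the cause was not tested. In the alternatives other than these the 6 tested genes kept their direction.

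The replicate numbers are not known to pair the libraries. The correlations here are of each library's differences from the mean of its own group, not of the levels themselves. Control replicates 1 to 3 correlated in this way with the deficient replicate of the same number at 0.03, −0.03 and 0.29, and not every library correlated best with its own number. These numbers, also used for the replicate block, are those of the sample titles. The authors' short library names number the deficient group differently. By those names control replicate 2 would go with deficient replicate 1 (0.261), and control replicate 3 with deficient replicate 2 (0.000418). Depth limits Tek, Emcn, Cldn5 and Erg, where at most 12 counts were read in a library.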
